A study of Nicotiana tabacum with 6 samples.

Results

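WRKY proteins are plant transcription factors named for a conserved stretch of amino acids in their DNA-binding domain. They bind W-box sites in the promoters of target genes and are best known from Arabidopsis, where they act downstream of MAP kinases in immune signalling and also in leaf senescence, phosphate uptake, wall formation and salt or drought responses. Many of them act on the promoters of other WRKY genes, as activators or as repressors.

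The WRKY genes described here are all rows of the deposited count table whose first name is WRKY followed by a number. There were 168 such rows among 69500 genes, under 34 first names, of which 8 belonged to 1 row each. The names come with Arabidopsis locus tags in the table, so that a name gives the Arabidopsis gene a tobacco gene was matched to, and several tobacco genes share a name. They are called copies here, and the Nitab4.5 identifier tells them apart. The 16 rows named WRKY19 are described as a group of their own, but they count in all totals given for WRKY genes. The Arabidopsis protein of that name joins a WRKY domain to the domains of an immune receptor and a kinase. The table does not say which stretch was matched.

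The libraries were made from polyadenylated RNA of tobacco seedlings. Nicotiana tabacum, the cultivated species, is an allotetraploid that carries the genomes of a pair of wild ancestors. The 3 control libraries came from seedlings given 7.5 mM ammonium nitrate in a Hoagland-type solution and the 3 low nitrogen libraries from seedlings given 0.75 mM, both for 15 days. The genotype, the age at the start and the organ are not named in the labels. The labels do not tell whether each library is a plant or culture of its own, so that the p-values reflect the spread between these libraries and no more, and that spread may be technical.

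Total counts per library ran from 13027374 to 15620067, and WRKY genes took 0.241% to 0.313% of them. Genes of light harvesting and the photosystems, which mark green tissue, summed to 222, 181 and 1847 CPM (counts scaled to a common library total) in control replicates 1, 2 and 3. In low nitrogen replicates 1, 2 and 3 they summed to 1062, 516 and 259.7 CPM. Values of 3 libraries are given in this order throughout. Root marker genes summed to between 844 and 1302 CPM, most of it from 1 QPT gene (Nitab4.5_0000742g0010) at 651 to 1025 CPM. Control replicate 3 thus stood apart from the other controls, and the results below are given with and without it where that matters. In bulk RNA, fewer cells of a type and less RNA per cell cannot be told apart.

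Of the 168 WRKY rows, 140 had enough counts to be tested, 22 had counts below the filter (at most 96 over the 6 libraries) and 6 had 0 counts in every library. The untested rows were 4 each of WRKY13 and WRKY53, 3 of WRKY19, and 1 or 2 each of WRKY2, WRKY3, WRKY4, WRKY7, WRKY17, WRKY29, WRKY42, WRKY44, WRKY45, WRKY48, WRKY67 and WRKY70. Both copies of WRKY44, a regulator of leaf hairs and seed coat in Arabidopsis, were among them. The median tested WRKY gene was at 14.4 CPM, against 10.4 CPM for the median of all 38482 genes tested. CPM is not corrected for transcript length, so that levels are compared here between libraries and not between genes.

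No WRKY gene (0 of 140) passed edgeR's quasi-likelihood test at an adjusted p of 0.05, and no gene of the whole table did (0 of 38482, 0%). An unadjusted p under 0.05 was reached by 17 WRKY genes, 11 higher and 6 lower with low nitrogen, or 12.1% of those tested against 11.8% of all genes. By direction, 7.86% were higher and 4.29% lower, against 6.1% and 5.66% of all genes. The share of WRKY genes at this threshold was thus near that of all genes. DESeq2 placed 2 WRKY genes past its adjusted threshold, 1.43% against 1.53% of all genes. Both were lower in low nitrogen, where 0.819% of all genes passed in that direction, and both were named WRKY60. limma-voom placed 0 WRKY genes and 0% of all genes past the adjusted threshold, with 19 WRKY genes at an unadjusted p under 0.05 (13.6%, against 11.6%).

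The groups did not overlap for 25 tested WRKY genes, 17.9% against 18.2% of all genes. Of these, 16 were higher (11.4% against 9.66%) and 9 lower in low nitrogen (6.43% against 8.54%). The log2 fold change of low nitrogen over control was above 0 for 93 of 140 WRKY genes, 66.4% against 50.3% of all genes, with a median of 0.16 against 0.0029. That tilt was smaller without either of 2 libraries. Without control replicate 3 the fold change was above 0 for 77 of 140, 55% against 50.6% of all genes tested then, with a median of 0.041. Without low nitrogen replicate 1 it was above 0 for 83 of 141, 58.9% against 48.5%, and the median was 0.10. With both left out it was above 0 for 72 of 140 and the median was 0.024, against a median of 0.0023 for all genes. The share of all genes above 0 was not computed for that fit. The controls summed to 2633, 2740 and 2352 CPM over all WRKY genes, and low nitrogen to 2977, 2516 and 2953 CPM, so that the groups overlapped.

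**Figure D1:**
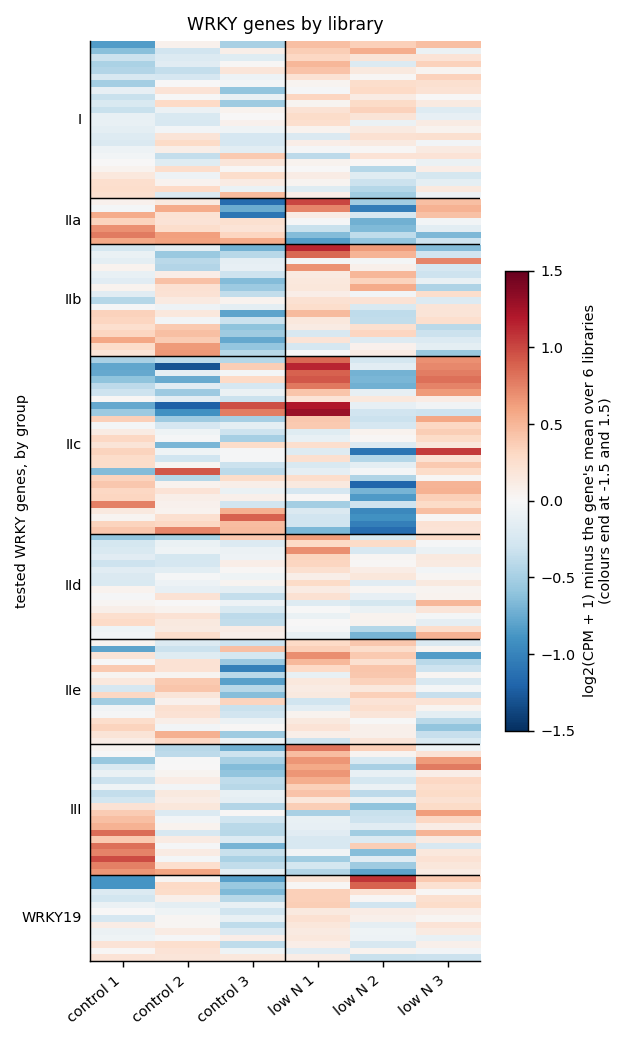
Heat map of the 140 tested WRKY genes (rows, by WRKY group and, within a group, by falling fold change) in the 6 libraries (columns). Colour is log2(CPM + 1) minus the gene's mean over the libraries, red above and blue below it. Many rows are blue in control replicate 3 or in low nitrogen replicate 2, and many are red in low nitrogen replicate 1.

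Group IIa holds WRKY18, WRKY40 and WRKY60 in Arabidopsis, 3 related factors that bind one another and adjust pathogen and abscisic acid responses. The table had 1 copy of WRKY40 and 6 of WRKY60, and all 7 were tested. Of these, 4 were lower at an unadjusted p under 0.05, 57.1% against 5.66% of all genes, and 3 had fold changes above 0. Without control replicate 3, 1 of 7 was above 0, and without low nitrogen replicate 1, 2 of 7 were. WRKY60 copies had the smallest edgeR p of the whole family, at ranks 1, 2 and 4, and all 3 were lower in low nitrogen.

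WRKY60 (Nitab4.5_0012161g0030) was at 21.4, 19.1 and 15.4 CPM in the controls and at 7.35, 9.06 and 7.21 CPM in low nitrogen. All low nitrogen libraries lay below all controls, and the means were 18.6 ± 3.02 and 7.87 ± 1.03 CPM (SD, n = 3). The log2 fold change was -1.24 (SE 0.18), with an adjusted p of 0.229 by edgeR and 6.34e-05 by DESeq2.

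WRKY60 (Nitab4.5_0002568g0030) was at 11.2, 11.6 and 11.1 CPM in the controls and at 3.64, 4.497 and 5.62 CPM in low nitrogen. The controls lay within a narrow range (11.3 ± 0.232 CPM), and low nitrogen was again lower in every library (4.58 ± 0.993 CPM). Its log2 fold change was -1.30 (SE 0.20), with an adjusted p of 0.255 by edgeR and 0.000154 by DESeq2. The copy Nitab4.5_0000886g0010 was at 29.8, 22.1 and 21.1 CPM in the controls and at 14.2, 11.1 and 16.2 CPM in low nitrogen, with no overlap. Its log2 fold change was -0.81 (SE 0.20) and DESeq2 gave it an adjusted p of 0.0621. For these 3 copies the unadjusted edgeR p stayed under 0.05 whichever library was left out, with highest values of 0.0014, 0.00188 and 0.0189.

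The other 3 WRKY60 copies did not share that pattern. Nitab4.5_0000508g0130 was at 18.1, 19.3 and 7.22 CPM in the controls and at 35.7, 11.7 and 24.0 CPM in low nitrogen, so that the groups overlapped and each held a low library. Its neighbour by identifier, Nitab4.5_0000508g0140, was at 6.66, 10.5 and 3.68 CPM and at 11.96, 2.81 and 10.2 CPM, with the same libraries low. Nitab4.5_0009407g0010 was at 6.497, 4.95 and 1.42 CPM and at 4.55, 3.31 and 5.97 CPM. The log2 fold changes of these copies were 0.68 (SE 0.48), 0.26 (SE 0.56) and 0.11 (SE 0.52). With control replicate 3 and low nitrogen replicate 1 both left out, they were -0.079, -0.42 and -0.32. The signs above 0 were thus not kept without these libraries. That of Nitab4.5_0009407g0010 also changed with only control replicate 3 left out (-0.32) and with only low nitrogen replicate 3 left out (-0.12).

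The copies were split into these sets after their values were seen, so that the difference between the sets is a description. The first set summed to 62.4, 52.7 and 47.6 CPM in the controls and to 25.2, 24.7 and 29.1 CPM in low nitrogen. The second set summed to 31.3, 34.7 and 12.3 CPM and to 52.2, 17.8 and 40.2 CPM. The second set made up 20.5% to 39.7% of the WRKY60 level in the controls and 41.9% to 67.5% in low nitrogen. With counts summed over all 6 copies the log2 fold change was -0.37 (SE 0.26, unadjusted edgeR p 0.201), and the groups overlapped.

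**Figure D2:**
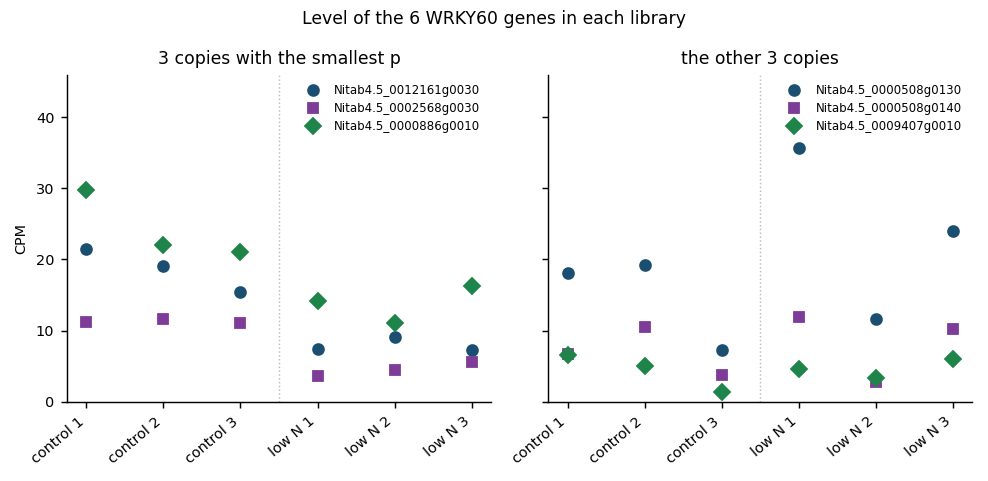
CPM (y axis) of each of the 6 WRKY60 genes in each library (x axis), 1 marker shape per gene. The 3 genes on the left are lower in every low nitrogen library than in every control. Of the 3 on the right, Nitab4.5_0000508g0130 is lowest in control replicate 3, at 7.22 CPM, and highest in low nitrogen replicate 1, at 35.7 CPM.

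WRKY40 (Nitab4.5_0008962g0010), a repressor of immune and abscisic acid responses in Arabidopsis, was at 20.5, 18.7 and 19.3 CPM in the controls and at 15.9, 9.43 and 15.7 CPM in low nitrogen. Low nitrogen was below every control, and the log2 fold change was -0.51 (SE 0.21, unadjusted edgeR p 0.0465). This gene was singled out after its values were seen. Its log2 fold change was -0.30 (p 0.0875) without low nitrogen replicate 2, its lowest library.

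Group I factors carry a pair of WRKY domains. Of 24 tested genes, 18 had fold changes above 0, 75% against 50.3% of all genes, and 18 of 24 also without control replicate 3. The median log2 fold change was 0.22. An unadjusted p under 0.05 was found for 3 of them, all higher, 12.5% against 6.1% of all genes. WRKY1 (Nitab4.5_0013875g0010) was at 13.6, 14.9 and 15.2 CPM in the controls and at 21.8, 20.0 and 20.1 CPM in low nitrogen. Both groups were tight and did not overlap, with a log2 fold change of 0.50 (SE 0.12, edgeR adjusted p 0.344). The copy of WRKY1 with the lowest fold change, Nitab4.5_0008284g0010, was at 0.992 ± 0.523 and 0.996 ± 0.438 CPM, too low to tell a change.

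WRKY3 and WRKY4 act in resistance to necrotrophic fungi in Arabidopsis, and the table had 12 and 6 copies of them. WRKY3 (Nitab4.5_0003975g0040) was at 13.8, 26.6 and 17.8 CPM in the controls and at 35.1, 32.7 and 35.2 CPM in low nitrogen. The controls were spread and low nitrogen was not, with no overlap and a log2 fold change of 0.82 (SE 0.23, edgeR adjusted p 0.358). At the other end of the 11 tested copies, Nitab4.5_0001226g0020 was at 30.2, 26.3 and 27.5 CPM and at 26.1, 20.0 and 22.8 CPM, lower in every low nitrogen library (log2 fold change -0.29, SE 0.14). Copies of WRKY3 thus included genes without overlap in both directions, 3 genes in all, and 9 of 11 fold changes were above 0. Of all genes, 18.2% had no overlap, 9.66% higher and 8.54% lower, and 50.3% had fold changes above 0.

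All 4 tested copies of WRKY4 had fold changes above 0, from 0.17 (Nitab4.5_0000441g0150) to 0.39. WRKY4 (Nitab4.5_0001732g0010) was at 59.1, 58.7 and 66.8 CPM in the controls and at 81.4, 70.8 and 89.1 CPM in low nitrogen, with no overlap (log2 fold change 0.39, SE 0.14, unadjusted edgeR p 0.0262). With counts summed over copies, WRKY1, WRKY3 and WRKY4 were each higher in every low nitrogen library. Their log2 fold changes were 0.30, 0.27 and 0.26, with unadjusted edgeR p-values of 0.0178, 0.0446 and 0.0464 and adjusted ones of 0.361 to 0.389.

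The most abundant WRKY gene of the table by CPM was WRKY26 (Nitab4.5_0000046g0020), whose Arabidopsis namesake acts in heat tolerance. It was at 121, 141 and 118 CPM in the controls and at 117, 86.4 and 125 CPM in low nitrogen, with overlap. The other copy, Nitab4.5_0000684g0170, was at 102, 105 and 79.0 CPM and at 74.4, 63.0 and 94.4 CPM. Both copies had their lowest value in low nitrogen replicate 2, and their log2 fold changes were -0.21 (SE 0.18) and -0.30 (SE 0.19).

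**Figure D3:**
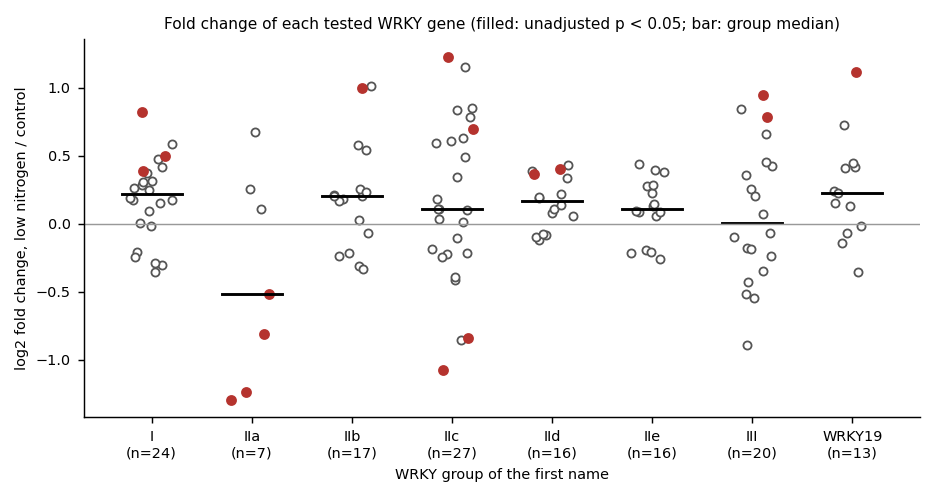
Log2 fold change of low nitrogen over control (y axis) for each tested WRKY gene, by the WRKY group of its first name (x axis), with filled points at an unadjusted edgeR p under 0.05 and bars at group medians. Group IIa has its median at -0.51 and 4 filled points below 0, and group I has its median at 0.22.

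Group IIc was the most varied, with 27 tested genes and log2 fold changes from -1.07 to 1.23. The fold change was above 0 for 17 of them (63%). That held for 15 of 27 without control replicate 3 and for 13 of 27 without low nitrogen replicate 1. At an unadjusted p under 0.05, 2 genes were higher and 2 lower, 7.41% in each direction against 6.1% and 5.66% of all genes. The median SD of log2(CPM + 1) within low nitrogen was 0.61, against 0.31 for all tested WRKY genes and 0.22 for all genes. In 20 of the 27 genes low nitrogen replicate 2 was the lowest of its group.

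WRKY45, which raises the expression of a phosphate transporter in Arabidopsis, had 6 copies, and all 5 tested ones had fold changes below 0. WRKY45 (Nitab4.5_0000039g0060) was at 13.1, 16.7 and 13.7 CPM in the controls and at 5.67, 3.81 and 11.2 CPM in low nitrogen. The groups did not overlap, although low nitrogen replicate 3 came close to the controls (log2 fold change -1.07, SE 0.38, edgeR adjusted p 0.388). Without that library the log2 fold change was -1.61. With control replicate 2 or low nitrogen replicate 1 left out, it was -0.96 each time, with unadjusted edgeR p-values of 0.0683 and 0.0745. Its neighbour by identifier, Nitab4.5_0000039g0050, was at 4.30, 4.20 and 4.81 CPM and at 2.45, 1.06 and 3.88 CPM.

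WRKY45 (Nitab4.5_0002299g0010) was at 12.4, 14.5 and 23.2 CPM in the controls and at 9.72, 5.996 and 12.3 CPM in low nitrogen. The highest low nitrogen value lay just under the lowest control, and without control replicate 3 the log2 fold change was -0.54 in place of -0.84 (unadjusted p 0.119 and 0.0358). The unadjusted p was 0.0708 without low nitrogen replicate 1 and 0.0966 without low nitrogen replicate 2. The 2 most abundant copies, Nitab4.5_0007375g0020 and Nitab4.5_0025760g0010, overlapped between groups (log2 fold changes -0.25 and -0.41). In all 5 copies low nitrogen replicate 2 was the lowest library, and the sum over copies gave a log2 fold change of -0.52 (SE 0.31, unadjusted p 0.13). WRKY75 (Nitab4.5_0014092g0020), a close relative of WRKY45 that also acts in phosphate starvation, was at 3.25, 11.7 and 4.11 CPM in the controls and at 5.11, 5.56 and 7.08 CPM in low nitrogen. Its log2 fold change was -0.10 (SE 0.47), and 0.68 without control replicate 2 (unadjusted edgeR p 0.0438).

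WRKY48 and WRKY8 act in defence against bacteria and in salt responses in Arabidopsis. WRKY48 (Nitab4.5_0000177g0060) was at 1.95, 2.18 and 2.05 CPM in the controls and at 6.51, 2.44 and 5.62 CPM in low nitrogen. The controls were nearly equal, and low nitrogen replicate 2 lay just above them (log2 fold change 1.23, SE 0.39, edgeR adjusted p 0.373). Without low nitrogen replicate 1 the unadjusted p was 0.0601. The WRKY48 copy at the other end, Nitab4.5_0005493g0020, had a log2 fold change of 0.11 (SE 0.29).

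WRKY8 (Nitab4.5_0005574g0010) was at 8.61, 7.203 and 10.3 CPM in the controls and at 14.9, 9.99 and 17.5 CPM in low nitrogen. Another copy, Nitab4.5_0008114g0010, was at 5.60, 3.60 and 13.5 CPM and at 24.0, 9.12 and 17.5 CPM. Both overlapped between groups through control replicate 3 and low nitrogen replicate 2, with log2 fold changes of 0.70 (SE 0.25) and 1.15 (SE 0.53). The lowest of the 5 copies by fold change, Nitab4.5_0011123g0020, lay between 1.31 and 3.005 CPM (log2 fold change -0.19).

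Some group IIc genes differed far more within a group than between groups. WRKY13, a regulator of stem lignin and flowering time in Arabidopsis, had a copy (Nitab4.5_0000184g0110) at 1.38, 0.750 and 6.94 CPM in the controls and at 8.33, 2.75 and 2.91 CPM in low nitrogen. The other tested copy (Nitab4.5_0005374g0020) was at 2.03, 1.35 and 6.51 CPM and at 9.86, 2.62 and 2.57 CPM. In both, the highest library of each group was the one with the highest light-harvesting and photosystem sum, control replicate 3 or low nitrogen replicate 1. Whether green tissue had a part in that was not tested. The 4 untested copies of WRKY13 were also highest in control replicate 3, at 1.98 to 4.11 CPM, against at most 0.568 CPM in the other controls.

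In WRKY59 (Nitab4.5_0001486g0060) low nitrogen gave 6.37, 2.94 and 16.4 CPM, the largest SD within low nitrogen among WRKY genes with a mean of at least 1 CPM (1.08 on the log2 scale), while the controls were at 9.58, 7.05 and 7.29 CPM. The copies of WRKY59 with the highest and lowest fold change, Nitab4.5_0007691g0010 and Nitab4.5_0001000g0160, had log2 values of 0.18 and 0.037. WRKY57, which acts in drought tolerance, had copies at log2 fold changes of 0.79 (Nitab4.5_0004977g0010, SE 0.43) and -0.39 (Nitab4.5_0003579g0010, SE 0.32). WRKY71 (Nitab4.5_0000184g0280), a promoter of shoot branching in Arabidopsis, was at 3.25, 5.63 and 6.09 CPM in the controls and at 12.4, 3.43 and 11.3 CPM in low nitrogen. Low nitrogen replicate 2 lay within the control range for WRKY71, and the log2 fold change was 0.85 (SE 0.48).

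**Figure D4:**
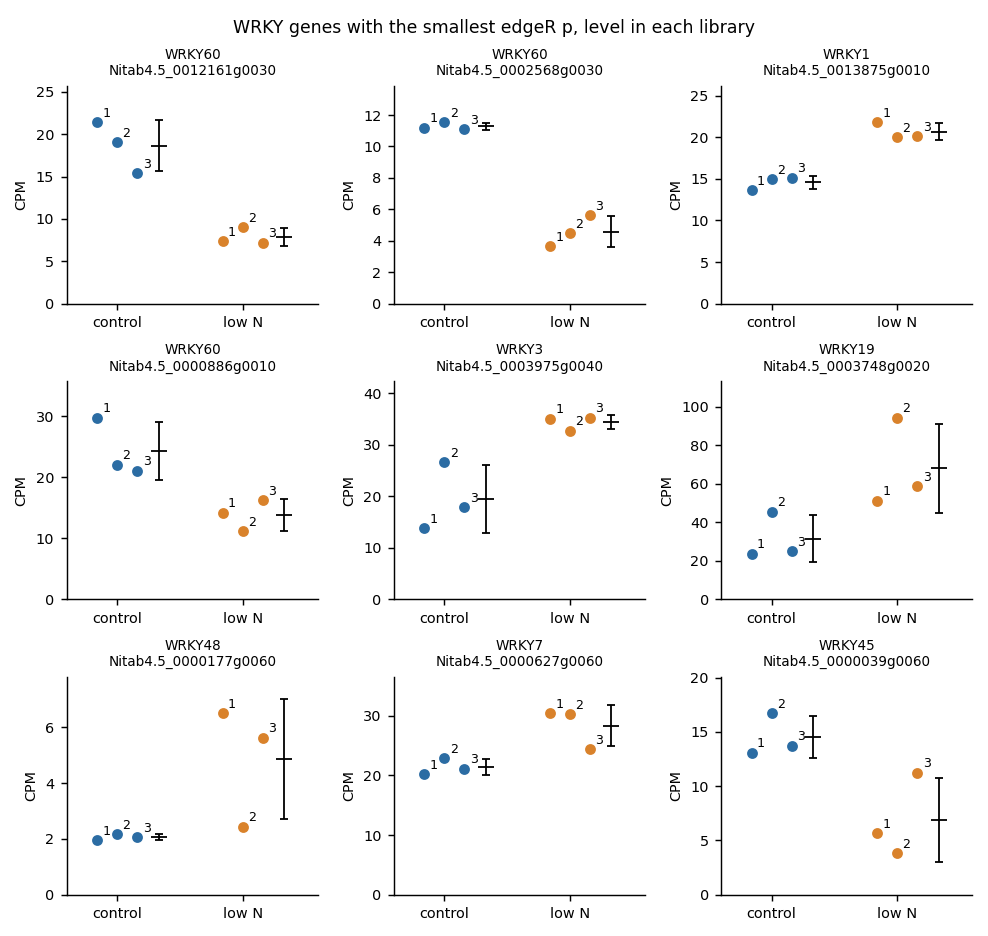
CPM (y axis, from 0) of the 9 WRKY genes with the smallest edgeR p in each library, with points numbered by replicate and black bars for the mean and SD of 3 libraries. Control and low nitrogen do not overlap in any of the 9. For WRKY48, low nitrogen replicate 2 at 2.44 CPM lies just above the highest control at 2.18 CPM.

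Group III factors include WRKY53, WRKY70 and WRKY46, which act in leaf senescence, salicylic acid signalling and drought in Arabidopsis, and WRKY62, a repressor of basal defence. Of 20 tested genes, 10 had fold changes above 0 (50%), and 2, both named WRKY62, were higher at an unadjusted p under 0.05, 10% against 6.1% of all genes. Control replicate 3 and low nitrogen replicate 2 were the lowest of their groups in 15 of the 20 genes each. The genes of the group summed to 366, 365 and 260.3 CPM in the controls and to 465, 287 and 456 CPM in low nitrogen.

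All 5 copies of WRKY62 were tested and had fold changes above 0. WRKY62 (Nitab4.5_0000381g0130) was at 13.2, 20.0 and 14.0 CPM in the controls and at 32.4, 16.9 and 31.8 CPM in low nitrogen. Low nitrogen replicate 2 lay within the control range, and the log2 fold change was 0.78 (SE 0.29, edgeR adjusted p 0.395). The copy with the highest fold change, Nitab4.5_0001215g0230, was at 3.57, 2.33 and 1.70 CPM and at 6.72, 4.68 and 3.26 CPM, with overlap (log2 fold change 0.95, SE 0.38).

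The most abundant copy, Nitab4.5_0000048g0080, was at 47.0, 63.6 and 45.0 CPM in the controls and at 86.7, 48.8 and 73.4 CPM in low nitrogen, with the lowest log2 fold change of the copies at 0.42 (SE 0.24). The remaining copies, Nitab4.5_0002758g0040 and Nitab4.5_0009611g0040, had log2 fold changes of 0.45 (SE 0.25) and 0.66 (SE 0.34). Single libraries moved these 3 values by over 1.5 times. Without low nitrogen replicate 1 they were 0.23 for Nitab4.5_0000048g0080 and 0.18 for Nitab4.5_0002758g0040, and Nitab4.5_0009611g0040 was at 0.41 without low nitrogen replicate 3. Summed over copies, WRKY62 was at 157, 192 and 128 CPM in the controls and at 287, 156 and 253 CPM in low nitrogen. Low nitrogen replicates 1 and 3 were above every control and replicate 2 was not, and the summed log2 fold change was 0.53 (SE 0.25, unadjusted edgeR p 0.0723).

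WRKY53, a promoter of leaf senescence in Arabidopsis, had the most copies beside WRKY19, with 16 rows and 12 tested. Of these, 9 had fold changes below 0, 0 passed an unadjusted p of 0.05, and the groups overlapped in all 12. The extremes were Nitab4.5_0000522g0240, at 7.96, 7.50 and 4.11 CPM in the controls and at 3.15, 2.25 and 5.13 CPM in low nitrogen (log2 fold change -0.89, SE 0.38), and Nitab4.5_0004506g0060, at 21.2 ± 3.11 and 27.2 ± 4.40 CPM (log2 fold change 0.36, SE 0.18). The sum over copies had a log2 fold change of -0.025 (SE 0.19).

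WRKY46 (Nitab4.5_0000171g0190) was at 30.1, 29.3 and 18.8 CPM in the controls and at 33.7, 16.7 and 31.9 CPM in low nitrogen. Each group held 1 low library, and the log2 fold change was 0.075 (SE 0.30). WRKY70 (Nitab4.5_0003473g0040) was at 29.1, 13.3 and 11.6 CPM and at 13.9, 10.7 and 22.9 CPM, with a log2 fold change of -0.18 (SE 0.41). The values of both genes overlapped between groups.

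Group IIb had 17 tested genes, 12 with fold changes above 0 (70.6%, but 8 of 17 without control replicate 3), and 1 passed an unadjusted p of 0.05, with higher values, 5.88% against 6.1% of all genes. WRKY47 (Nitab4.5_0000785g0150) was at 3.25, 2.10 and 2.41 CPM in the controls and at 7.28, 5.50 and 2.71 CPM in low nitrogen, with overlap (log2 fold change 1.00, SE 0.39). Its unadjusted p was under 0.05 in 2 of 6 fits that left out 1 library, and without low nitrogen replicate 1 the log2 fold change was 0.65 (p 0.15). The lowest fold change among its 10 copies was that of Nitab4.5_0000005g0190, at 43.0, 37.4 and 16.4 CPM in the controls and at 32.9, 24.8 and 24.6 CPM in low nitrogen (log2 value -0.23, SE 0.34). The most abundant WRKY47 gene, Nitab4.5_0005781g0050, was at 58.0 ± 13.1 and 59.1 ± 12.8 CPM (log2 value 0.028).

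WRKY42, a repressor of phosphate loading in Arabidopsis, had a copy (Nitab4.5_0004785g0070) at 5.68, 6.23 and 3.89 CPM in the controls and at 16.4, 11.4 and 4.09 CPM in low nitrogen. Low nitrogen replicate 3 was within the control range and the other libraries were not (log2 fold change 1.02, SE 0.47). Without low nitrogen replicate 1 the value was 0.55 (unadjusted p 0.274). Another copy, Nitab4.5_0000879g0040, had a log2 fold change of -0.31 (SE 0.30). WRKY72, which acts in basal defence, ran from -0.33 (Nitab4.5_0006585g0010, SE 0.30) to 0.20 (Nitab4.5_0009850g0020, SE 0.31).

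Group IId, which holds repressors of basal defence such as WRKY11 and WRKY7, varied least within the controls, with a median SD of 0.12 on the log2 scale against 0.28 for all tested WRKY genes. Of 16 tested genes, 12 had fold changes above 0 (75%, and 10 of 16 without control replicate 3), and 2 passed an unadjusted p of 0.05, both with higher values, 12.5% against 6.1% of all genes. WRKY7 (Nitab4.5_0000627g0060) was at 20.2, 22.9 and 21.1 CPM in the controls and at 30.4, 30.2 and 24.3 CPM in low nitrogen, with no overlap (log2 fold change 0.40, SE 0.14, edgeR adjusted p 0.388). WRKY11 (Nitab4.5_0000187g0310) was at 14.5, 13.4 and 15.5 CPM and at 21.0, 16.7 and 18.2 CPM, also without overlap (log2 fold change 0.36, SE 0.14), and was singled out after its values were seen.

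The 14 copies of WRKY11 were all tested and lay close together, with log2 fold changes from -0.12 (Nitab4.5_0000284g0050) to 0.43 (Nitab4.5_0000604g0060). The highest of them rested on spread libraries, at 15.3, 16.5 and 30.9 CPM in the controls and at 36.4, 19.9 and 28.6 CPM in low nitrogen. The most abundant copy, Nitab4.5_0005992g0010, was at 38.2, 44.0 and 42.5 CPM and at 47.1, 50.1 and 45.4 CPM, with no overlap and a log2 fold change of 0.19 (SE 0.12). Nitab4.5_0000929g0030 had the smallest p among the copies with lower values, at a log2 fold change of -0.10 (SE 0.19). The sum over all copies of WRKY11 gave 0.10 (SE 0.11) on that scale.

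Group IIe had 16 tested genes and 0 at an unadjusted p under 0.05 in either direction, with 12 fold changes above 0 (75%, but 6 of 16 without control replicate 3). WRKY29, which acts downstream of the flagellin receptor in Arabidopsis, ran from -0.21 (Nitab4.5_0004481g0020, SE 0.35) to 0.44 (Nitab4.5_0010695g0060, SE 0.29) on the log2 scale. WRKY14 ran from -0.26 (Nitab4.5_0000607g0130, SE 0.22) to 0.40 (Nitab4.5_0003540g0070, SE 0.36). Its most abundant copy, Nitab4.5_0007471g0010, was at 34.6, 34.5 and 25.3 CPM in the controls and at 31.0, 44.9 and 34.5 CPM in low nitrogen. Control replicate 3 was the lowest control in 13 of the 16 genes.

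Of the 16 rows named WRKY19, 13 were tested, 9 had fold changes above 0 (69.2%) and 1 was higher at an unadjusted p under 0.05, 7.69% against 6.1% of all genes. That gene, Nitab4.5_0003748g0020, was at 23.7, 45.5 and 24.9 CPM in the controls and at 51.1, 94.4 and 58.8 CPM in low nitrogen, with no overlap (log2 fold change 1.12, SE 0.33, adjusted p 0.363 by edgeR and 0.0694 by DESeq2). Nitab4.5_0002865g0100 had its libraries in the same order within each group, at 26.3, 60.9 and 33.3 CPM and at 49.9, 91.8 and 57.6 CPM, but overlapped (log2 fold change 0.73, SE 0.36). At the other end, Nitab4.5_0002944g0150 was at 51.0, 50.3 and 49.3 CPM and at 47.8, 34.7 and 35.0 CPM, lower in every low nitrogen library (log2 fold change -0.36, SE 0.16).

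Copies of 1 name often had fold changes of both signs. Of 23 first names with at least 2 tested copies, 14 had fold changes of both signs, 6 had all above 0 and 3 had all below 0. The same count was not made over all names of the table, so that WRKY names cannot be set against others. A sign is uncertain where the fold change is small beside its SE, as for the only WRKY8 copy below 0, at -0.19 (SE 0.43). The span of log2 fold changes between copies was widest for WRKY60, at 1.98, followed by WRKY19 at 1.47 and WRKY8 at 1.34. With counts summed over identical first names across the whole table, 31 WRKY names were tested. At an unadjusted edgeR p under 0.05, 4 of them (WRKY1, WRKY3, WRKY4 and WRKY7) were higher, 12.9% against 6.38% of all 16100 features, and 1 (WRKY40) was lower, 3.23% against 6.39%. The sources used here do not give how reads were divided between near-identical copies, so that values of single copies are uncertain where copies are alike.

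Identifiers of the gene set hold a scaffold number, and 17 members shared a scaffold with another member, on 8 scaffolds. Tested pairs of 1 name on 1 scaffold had fold changes of the same sign: -0.85 and -1.07 for WRKY45, 0.68 and 0.26 for WRKY60, -0.43 and -0.51 for WRKY53 (Nitab4.5_0002944g0100 and Nitab4.5_0002944g0110), and 0.36 and 0.25 for WRKY53 (Nitab4.5_0004506g0060 and Nitab4.5_0004506g0110).

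The spread within groups was as large a feature of the family as the difference between them. The median SD of log2(CPM + 1) was 0.28 within control and 0.31 within low nitrogen for WRKY genes, against 0.21 and 0.22 for all tested genes. Control replicate 3 was the lowest of the controls for 75 WRKY genes, 53.6% against 35% of all genes, and it lay a median of 0.22 below the mean of the other controls, against 0.0064 above for all genes. Low nitrogen replicate 2 was the lowest of its group for 70 WRKY genes, 50% against 28%. Over all 6 libraries, 34.3% of WRKY genes were highest in low nitrogen replicate 1 (23.3% of all genes) and 35% were lowest in control replicate 3 (15.3%). These shares are descriptions, since genes are not independent replicates.

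**Figure D5:**
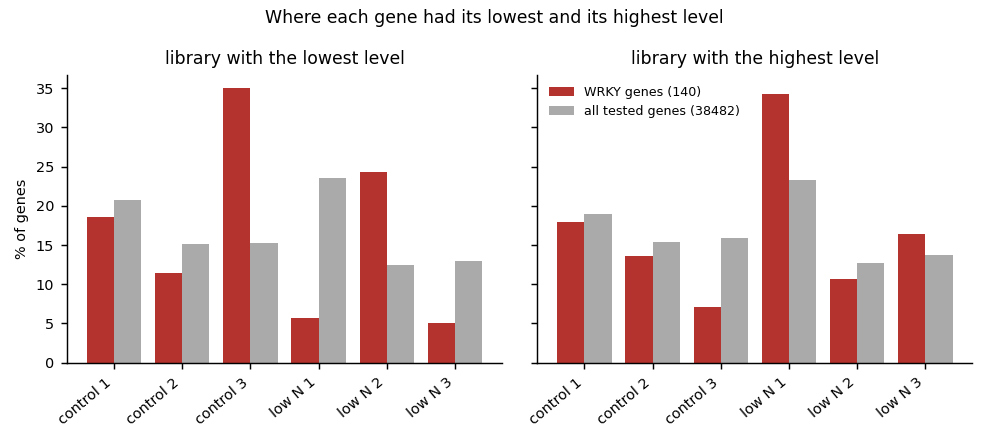
Percent of genes (y axis) whose lowest (left) or highest (right) level was in a given library (x axis), for the 140 tested WRKY genes and for all 38482 tested genes. WRKY genes were lowest in control replicate 3 in 35% and in low nitrogen replicate 2 in 24.3%, against 15.3% and 12.4% of all genes.

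Among genes that act with WRKY factors, the MAP kinase cascade, which phosphorylates several of them, had 4 of 86 tested genes higher and 3 lower at an unadjusted edgeR p under 0.05, or 4.65% and 3.49% against 6.1% and 5.66% of all genes, with a median log2 fold change of -0.11. ANP2 (Nitab4.5_0000080g0140), a kinase at the top of a cascade, had the smallest p, at 25.7, 27.2 and 24.4 CPM in the controls and at 34.002, 35.7 and 31.4 CPM in low nitrogen. VQ proteins bind WRKY factors and adjust their activity, and 2 of 29 were higher and 0 lower, 6.9% and 0% against the same shares of all genes. Both were named VQ9, a partner of WRKY8 in Arabidopsis. VQ9 (Nitab4.5_0008558g0010) was at 9.50, 8.03 and 8.57 CPM and at 13.6, 13.0 and 12.9 CPM, and VQ9 (Nitab4.5_0000786g0140) was at 7.15, 7.13 and 7.22 CPM and at 11.5, 13.1 and 9.71 CPM. Neither overlapped between groups, and their edgeR adjusted p-values were 0.344 and 0.347. The remaining tested VQ9 gene, Nitab4.5_0000256g0320, overlapped, at 14.0, 11.7 and 10.5 CPM and at 12.9, 12.7 and 12.5 CPM (log2 fold change 0.074, SE 0.16).

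Immune receptors and regulators had 13 of 177 genes higher and 9 lower at that threshold, 7.34% and 5.08% against 6.1% and 5.66% of all genes, with a median log2 fold change of 0.029. The shares of these 3 lists were near or below those of all genes. TGA2.2 (Nitab4.5_0009266g0020), a bZIP factor of salicylic acid responses, had the smallest p, at 11.4, 12.3 and 12.2 CPM in the controls and at 23.3, 15.9 and 19.1 CPM in low nitrogen. DESeq2 placed 1 gene of this list (0.565%, against 1.53% of all genes) past its adjusted threshold, named FLS2 after the flagellin receptor (Nitab4.5_0002177g0010), at 0.731, 0.675 and 2.27 CPM and at 7.07, 2.37 and 7.98 CPM. Pathogenesis-related genes, among the targets of WRKY factors, had 3 of 6 higher and 0 lower, 50% and 0% against 6.1% and 5.66% of all genes. All 3 were copies named PRB1. The remaining PRB1 gene and the tested genes named PR-1 and PR4 did not pass. PRB1 (Nitab4.5_0003771g0010) was at 41.5, 17.9 and 192 CPM in the controls and at 1044, 101 and 1293 CPM in low nitrogen. Its groups overlapped, and the log2 fold change was 3.28 (SE 1.13, adjusted p 0.388 by edgeR and 0.189 by DESeq2). Low nitrogen replicate 2 was low in PRB1, as it was in WRKY62, WRKY48 and WRKY71, and a shared cause was not tested.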

How the data were processed

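Per the file headers and values, the authors deposited raw whole-number counts per gene, 1 column per library. Per the submitters' processing notes, HISAT2 was used. No source used here gives its version, how reads were counted, whether strand was used, or what was done with multiply mapped reads. Counts were filtered with edgeR's filterByExpr by group (minimum count 10), scaled by TMM factors and tested with edgeR 4.0.16 (glmQLFit, glmQLFTest, R 4.3.3). p-values were adjusted by Benjamini-Hochberg over all 38482 genes tested, at a threshold of 0.05. DESeq2 1.42.0 (independent filtering at 0.05) and limma-voom (limma 3.58.1) were alternatives. Levels are CPM after TMM scaling, SDs within groups used log2(CPM + 1), and the SE of a fold change is its size divided by the square root of edgeR's F. The steps were tested on simulated data. WRKY groups are those of the Arabidopsis namesakes.

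The members, lists and rules were chosen with earlier results of these data known. Named genes were, by WRKY group, the most abundant and the smallest p in each direction, the 12 smallest p, the 4 largest SDs within each group of libraries at a mean of at least 1 CPM, calls of DESeq2 or limma-voom, and the highest and lowest fold change of each name with at least 3 tested copies. Genes named outside this rule were the remaining copies of WRKY26, WRKY45 and WRKY62, the single tested copies of WRKY40, WRKY46, WRKY70, WRKY71 and WRKY75, 1 WRKY11 gene and genes sharing a scaffold, all chosen after their values were seen. Pathway genes were named by the smallest p of their list, a VQ9 gene as the remaining copy of its name, and the QPT gene for its part of the root marker sum. Pollen markers matched 0 genes. At library totals of 13027374 to 15620067, a gene near 1 CPM has few counts and its values are imprecise.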

Additional observations from a re-analysis of the deposited data

How the results depend on the processing

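No WRKY gene passed the edgeR threshold in any alternative that used edgeR or limma-voom, and 2 did with DESeq2. With counts summed over identical first names, 4 names passed an unadjusted p of 0.05 with higher and 1 with lower values, and the median log2 fold change was 0.094. Leaving out 1 library gave 3 to 18 higher and 4 to 11 lower genes and medians of 0.041 to 0.20, with the lowest median without control replicate 3. The median was 0.10 and 3 genes were higher without low nitrogen replicate 1, 18 were higher without low nitrogen replicate 2, and 11 were lower without low nitrogen replicate 3. These were 2.13%, 12.4% and 7.53% of WRKY genes, against 3.17%, 4.63% and 7.14% of all genes in the same fit and direction. Over the fits that left out 1 library, 6.38% to 15.8% of WRKY genes and 5.62% to 15.3% of all genes were at that p in either direction. The gap was widest without low nitrogen replicate 2, at 15.2% against 9.35%. With control replicate 3 and low nitrogen replicate 1 both left out, the median was 0.024, with 9 genes higher and 7 lower. These were 6.43% and 5% of WRKY genes, near the 5.95% and 4.83% of all genes. Of the 17 genes at an unadjusted p under 0.05, 6 kept it in every fit that left out 1 library: 3 WRKY60 copies, WRKY1, WRKY3 and WRKY19. Of 47 other genes named, 44 had a fold change that moved by over 1.5 times in at least 1 such fit. Neither count was made over all genes, so that WRKY genes cannot be set against others in this. The replicate block gave 12 higher and 6 lower WRKY genes, 12.9% together against 7.94% of all genes. Deviations of same-numbered libraries from their group means correlated at -0.35, 0.14 and -0.25 across genes. Control replicates 1 and 3 each correlated best with another number, and control replicate 2 with its own. Deviations of 3 libraries from their mean are tied to one another, so that these values cannot settle whether the numbers pair the samples.

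Fold changes of the other sign arose for genes that were far from the threshold in the fit of all 6 libraries. The reversed value of WRKY75 without control replicate 2 had an unadjusted edgeR p of 0.0438. Leaving out 1 library gave log2 values of -0.54 to 0.038 for WRKY45 (Nitab4.5_0007375g0020), -0.36 to 1.56 and -0.11 to 2.12 for WRKY13 (Nitab4.5_0005374g0020, Nitab4.5_0000184g0110), -0.56 to 0.021 and -0.12 to 0.21 for WRKY47 (Nitab4.5_0000005g0190, Nitab4.5_0005781g0050), -0.0016 to 0.37 for WRKY72 (Nitab4.5_0009850g0020), -0.51 to 0.097 for WRKY29 (Nitab4.5_0004481g0020), -0.29 to 0.071 and -0.50 to 0.14 for WRKY11 (Nitab4.5_0000929g0030, Nitab4.5_0000284g0050), and -0.55 to 0.34 for WRKY70. They were -0.11 to 0.69 and -0.32 to 0.53 for WRKY60 (Nitab4.5_0000508g0140, Nitab4.5_0009407g0010), -0.47 to 0.069 for WRKY8 (Nitab4.5_0011123g0020), -0.16 to 0.28 for WRKY48 (Nitab4.5_0005493g0020), -0.12 to 0.33 for WRKY46, -0.42 to 0.68 for WRKY75, -0.78 to 0.52 and -0.10 to 0.24 for WRKY59 (Nitab4.5_0001486g0060, Nitab4.5_0001000g0160), and -0.30 to 0.48 for WRKY1 (Nitab4.5_0008284g0010). With that pair of libraries left out, the values were -0.079, -0.42 and -0.32 for WRKY60 (Nitab4.5_0000508g0130, Nitab4.5_0000508g0140, Nitab4.5_0009407g0010), -0.30 for WRKY46, -0.10 for WRKY59 (Nitab4.5_0001000g0160) and -0.19 for WRKY47 (Nitab4.5_0005781g0050). limma-voom and the replicate block gave 0.11 and 0.11 for WRKY75 and -0.25 and -0.21 for WRKY59 (Nitab4.5_0001486g0060). WRKY1 (Nitab4.5_0008284g0010), near 0 throughout, was at -0.0075 with DESeq2, -0.0079 with RLE factors, -0.014 with upper-quartile factors, -0.0039 without a filter and -0.0056 with 1 CPM in 3 libraries. The cause was not tested in each case.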
